A study of Mus musculus with 17 samples.

Results

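The genes described here encode amino acid transporters of the plasma membrane and lysosome. They were taken by symbol: every gene whose single annotated symbol begins Slc1a, Slc3a, Slc6a, Slc7a, Slc36a, Slc38a or Slc43a, which gave 58 of the 17097 genes with a symbol of their own on the array. For a gene with several probe sets (a probe set is a group of short probes against 1 transcript), the one of highest mean over the 17 arrays stands for it. The 58 genes have 102 probe sets, 32 genes having 1 and 26 having several. The choice of probe set used the measured mean, while the rule for members follows gene names and used no measured value. It therefore also takes in some carriers of other substrates and 2 opposite-strand transcripts, Slc36a1os and Slc6a19os.

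Gene expression was measured with Affymetrix arrays on RNA from wild-type C57/Bl6 mouse cells, in 3 leukemia groups and 2 healthy groups. The DN2-labelled leukemias (5 arrays) came from transformed thymic double-negative 2 cells, which are early T-cell progenitors. The LSK-labelled leukemias (3 arrays) came from transformed LSK marrow cells (no lineage markers, Sca1 and c-kit present), a fraction that holds the blood stem cells, and the GMP-labelled leukemias (5 arrays) from transformed granulocyte-macrophage progenitors. Healthy DN2 cells from thymus (2 arrays) and healthy GMP from marrow (2 arrays) are the matched normal populations, and no healthy LSK array was analysed here. By their labels, all 3 leukemia groups carry Myc and Bcl2 as transforming genes, and they were grown in recipients aged 4 to 8 weeks that had been irradiated with 4.5 to 6 Gy. The leukemia RNA came from spleen cells of those recipients sorted as positive for CD11b and Gr1 and negative for CD3, CD4 and CD8. The healthy cells carry neither transforming gene, were not transplanted and came from other organs, so transformation, transplantation and organ cannot be told apart in a comparison of leukemia with healthy cells. Nothing in the labels says whether arrays of a group are different mice, so the p-values below measure the spread between these arrays, which may be technical.

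Cells import amino acids through carriers that couple each molecule to sodium, to protons or to the exit of another amino acid. The heavy chain Slc3a2 pairs with light chains of the Slc7a family, and Slc7a5 with Slc3a2 brings in leucine and other large neutral amino acids, which the growth regulator mTORC1 senses. Myc-family transcription factors are known to raise several of these carriers in dividing cells, and the stress factor ATF4 raises others when amino acids run short.

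Values are log2 expression values, so a difference of 1 is a factor of 2. The median of all values was 3.83 and serves as the level of background. A gene was tested when its highest group mean lay above 3.83, which held for 33 of the 58 genes and for 11629 genes on the array. Differences were tested with limma, which fits all 17 arrays and shares 1 estimate of the spread between groups, and a gene was called at a Benjamini-Hochberg adjusted p under 0.05 over all 11629 genes. Values close to background compress a difference, so a large difference that ends at background is given as it stands on this scale. In bulk RNA, fewer cells of a type and less RNA per cell cannot be told apart.

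Some arrays did not match their labels, and part of the results that rest on them are also given without them. Single genes of the lists outside the transporters are given with all arrays only. Every DN2-labelled leukemia array carried T-cell RNA: the 5 measured T-cell markers averaged 9.85 to 10.42, against 7.86 to 8.01 in healthy DN2 cells. Cd3e, which encodes part of the CD3 complex that the sort was to exclude, lay between 7.79 and 9.06 in those leukemia arrays. All 6 neutrophil markers had group means within 1 log2 unit of background or below it there, and their array means were 3.45 to 4.39, although Ngp reached 5.72 in array 1 and 5.58 in array 5. The same markers averaged 11.30 to 13.38 in LSK-labelled and 12.48 to 13.41 in GMP-labelled leukemias. Within the DN2-labelled group, arrays 1 and 3 had Itgam (the CD11b gene) at 7.17 and 7.38, against 3.24 to 3.47 in the other 3, and their NK-cell markers averaged 10.75 and 10.80, against 7.73 to 8.77. Mycn was the Myc-family gene that was high in leukemia arrays, at 11.58 to 12.10 in DN2-labelled leukemias, against 4.21 and 4.52 in healthy DN2 cells, and at 12.06 to 13.15 in GMP-labelled leukemias. Myc itself was at 5.48 to 6.49 over the 13 leukemia arrays, against 10.10 to 10.65 over the 4 healthy arrays. LSK-labelled array 1 had Mycn at 12.82 and Bcl2 at 11.30, while LSK-labelled arrays 2 and 3 had Mycn at 4.91 and 4.22 and Bcl2 at 6.75 and 5.27. The monocyte markers averaged 8.38 in LSK-labelled array 1, against 11.15 and 11.11 in arrays 2 and 3. The 4 measured markers of B cells averaged 7.22 to 7.62 over the LSK-labelled arrays, against 3.58 to 4.01 in GMP-labelled leukemias. Of these, Jchain lay at 10.47 to 12.89 in the LSK-labelled arrays, Ms4a1 at 4.75 to 7.60 and Cd79a, near background, at 4.00 to 4.52. Cd79b lay at 7.49 to 7.94 there, against 8.10 and 8.11 in healthy GMP. NK-cell markers averaged 5.86 to 7.46 in the LSK-labelled arrays, against 3.15 to 3.50 in GMP-labelled leukemias. Erythroid markers averaged 3.42 to 5.09 over all 17 arrays. Platelet markers averaged 5.80 and 6.30 in healthy GMP, against 3.69 to 3.96 in GMP-labelled leukemias.

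Of the 58 transporter genes, 20 had a group mean more than 1 log2 unit above background, 13 were near background with a highest group mean from 3.84 to 4.69, and 25 were not tested. All 5 glutamate carriers of the Slc1a family (Slc1a1, Slc1a2, Slc1a3, Slc1a6 and Slc1a7), known from neurons, glia and epithelia, were among the 25, with group means no higher than 3.80. So were the kidney and gut carriers Slc3a1, Slc6a18, Slc6a19, Slc6a20a, Slc6a20b and Slc7a9, and the serotonin, dopamine and spinal glycine carriers Slc6a4, Slc6a3 and Slc6a5. The remaining untested genes were Slc6a14, Slc6a15, Slc6a19os, Slc6a21, Slc7a3, Slc7a10, Slc7a12, Slc7a14, Slc7a15, Slc38a4 and Slc38a5. Over the 25 untested genes no array exceeded 4.03. The 13 genes near background were Slc6a2, Slc6a7, Slc6a8, Slc6a9, Slc6a12, Slc6a17, Slc7a2, Slc7a8, Slc7a13, Slc36a1os, Slc36a2, Slc36a3 and Slc38a3.

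**Figure D1:**
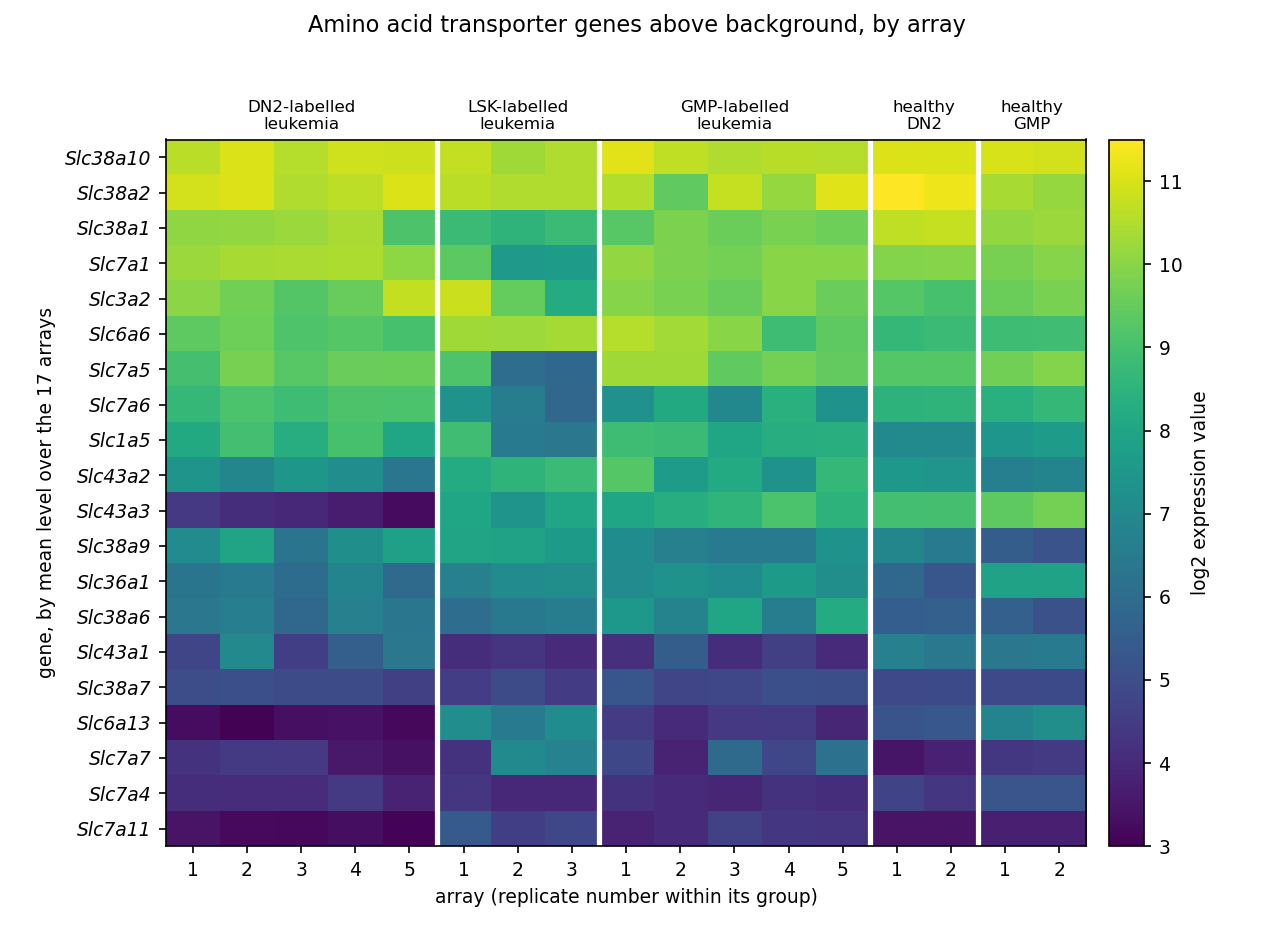
Log2 expression value of each transporter gene above background (rows) on each of the 17 arrays (columns, by group); colour gives the value, and rows are sorted by mean only, since levels of different probe sets are not comparable. Slc43a3 and Slc6a13 are dark in the 5 DN2-labelled leukemia arrays, and Slc7a5, Slc7a1 and Slc1a5 are low in LSK-labelled arrays 2 and 3.

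Several members lie beside each other in the genome. Slc6a12 and Slc6a13 are adjacent protein-coding genes on chromosome 6, Slc38a1, Slc38a2 and Slc38a4 follow each other on chromosome 15, Slc36a3, Slc36a2 and Slc36a1 on chromosome 11, and Slc43a1 and Slc43a3 have 1 protein-coding gene between them on chromosome 2. Promoter windows of 300 bases (250 before the transcription start and 50 after it, RefSeq, build GRCm38.p6) matched 41 of the 58 genes by symbol. The letters CACGTG, an E-box that Myc-family proteins can bind, were searched on both strands, as was TGATGNAA, the core of the element that ATF4 and C/EBP proteins can bind. CACGTG was found in windows of 8 of the 41 genes and in 12.9% of their 62 windows, against 7.15% of all 32851 windows. TGATGNAA was found in 3 of the 41 genes and in 6.45% of their windows, against 3.97% of all windows. Of the 20 matched genes that were tested, 3 had CACGTG and 2 had TGATGNAA. Slc1a6, Slc1a7, Slc6a3, Slc7a14 and Slc38a5 hold CACGTG but were not tested. The windows of the 3 genes that hold either motif and were called in at least 3 comparisons are shown, with the motif in capitals. Slc36a1 (chr11:55204090-55204389, plus strand) has CACGTG starting 31 and 3 bases before its start, Slc43a1 (chr2:84840073-84840372, plus strand) has it 64 bases before, and Slc7a11 (chr3:50443564-50443863, minus strand) has TGATGNAA 66 and 47 bases before, the nearer copy on the opposite strand.
Slc36a1: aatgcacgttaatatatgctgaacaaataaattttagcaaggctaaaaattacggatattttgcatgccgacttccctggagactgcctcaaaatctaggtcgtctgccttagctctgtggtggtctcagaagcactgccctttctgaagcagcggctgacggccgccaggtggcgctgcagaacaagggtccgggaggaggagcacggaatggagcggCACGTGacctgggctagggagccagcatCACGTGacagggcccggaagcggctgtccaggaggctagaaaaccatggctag
Slc43a1: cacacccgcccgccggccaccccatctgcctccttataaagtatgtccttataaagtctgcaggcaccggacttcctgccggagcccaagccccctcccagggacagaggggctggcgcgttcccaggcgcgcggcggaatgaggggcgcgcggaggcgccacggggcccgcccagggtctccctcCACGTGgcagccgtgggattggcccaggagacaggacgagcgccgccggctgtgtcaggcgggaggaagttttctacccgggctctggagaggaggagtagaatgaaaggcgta
Slc7a11: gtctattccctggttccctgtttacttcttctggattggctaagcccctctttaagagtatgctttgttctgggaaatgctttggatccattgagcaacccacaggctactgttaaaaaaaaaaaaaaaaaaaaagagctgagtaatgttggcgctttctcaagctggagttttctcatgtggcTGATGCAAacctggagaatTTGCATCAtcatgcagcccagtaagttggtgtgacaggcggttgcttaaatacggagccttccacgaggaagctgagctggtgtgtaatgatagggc
A motif match describes these letters only.

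In the DN2-labelled leukemias compared with healthy DN2 cells, which differ in transformation among other things, Slc43a3 and Slc6a13 fell and Slc36a1 rose. These 3 are 9.09% of the 33 tested members, against 23.2% of all genes (9.48% higher and 13.7% lower), so the share of members was below that of genes at large. The median difference was 0.04 over the members and 0.01 over all genes. NK-cell markers averaged 7.73 to 10.80 in DN2-labelled leukemias, against 4.75 and 4.76 in healthy DN2 cells, but differed by unlike amounts. Klrd1 lay at 10.12 to 11.90 and Eomes at 10.16 to 11.19 in those leukemias. Ncr1 was 9.56 and 9.95 in arrays 1 and 3, against 3.40, 4.50 and 3.82 in arrays 2, 4 and 5. Prf1 ran from 4.28 to 8.65, and Gzma was already at 9.09 and 9.15 in healthy DN2 cells. T-cell markers were higher in leukemia as given above. The part of these markers in the differences was not tested.

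Slc43a3, a member of the SLC43 family that carries purine nucleobases rather than amino acids, had 4.40, 4.11, 3.94, 3.65 and 3.24 in DN2-labelled leukemia arrays 1 to 5, against 8.95 and 8.98 in healthy DN2 cells. The leukemia arrays lay around background and far below both healthy arrays. The limma difference was -5.10 ± 0.31 (SE, adjusted p = 1.26e-08). Slc6a13, the GABA carrier GAT2, had 3.30, 3.05, 3.36, 3.41 and 3.17 in DN2-labelled leukemias, against 5.20 and 5.29 in healthy DN2 cells. All 5 leukemia values were below background, and the groups did not overlap (difference -1.99 ± 0.23, adjusted p = 9.61e-06).

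Slc36a1, a lysosomal proton-coupled exporter of small amino acids linked to mTORC1, had 6.30, 6.52, 6.00, 6.84 and 5.94 in DN2-labelled leukemias, against 5.88 and 5.29 in healthy DN2 cells. The lowest leukemia array lay just above the higher healthy array. The difference was 0.74 ± 0.25 (adjusted p = 0.0444) and lost its call in 10 of 16 alternatives, among them 0.44 without healthy DN2 array 2 (adjusted p = 0.474).

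Large neutral amino acid and glutamine carriers did not pass the test here. Slc7a5, the light chain for leucine, averaged 9.45 ± 0.30 in DN2-labelled leukemias (SD, n = 5) and 9.26 ± 0.02 in healthy DN2 cells (SD, n = 2; limma adjusted p = 0.888). Slc1a5, the glutamine exchanger ASCT2, averaged 8.49 ± 0.47 in DN2-labelled leukemias and 7.06 ± 0.03 in healthy DN2 cells. All 5 leukemia arrays (8.00 to 9.01) exceeded both healthy arrays (7.08 and 7.04), but the difference of 1.42 ± 0.52 missed the threshold (limma adjusted p = 0.0642). Slc38a1, a sodium-coupled glutamine importer, averaged 10.00 ± 0.51 in DN2-labelled leukemias and 10.72 ± 0.04 in healthy DN2 cells. Its difference of -0.72 ± 0.27 also missed the threshold (limma adjusted p = 0.0684). Slc1a5 and Slc38a1 were each called in 2 of 16 alternatives, so both lie close to the threshold.

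In the GMP-labelled leukemias compared with healthy GMP, Slc38a6, Slc38a9 and the large neutral carrier Slc43a2 rose. Slc6a13, Slc43a1, Slc7a4, Slc43a3 and, near background, Slc6a2 and Slc7a2 fell. These 9 are 27.3% of the members tested, against 21.2% of all genes (8.08% higher and 13.1% lower), and the share of members was close to that of genes at large. The median difference was -0.06 over the members and -0.12 over all genes. Neutrophil markers averaged 12.48 to 13.41 in GMP-labelled leukemias, against 5.84 and 6.03 in healthy GMP. Monocyte markers averaged 5.64 to 8.11 in GMP-labelled leukemias, against 8.85 and 8.46 in healthy GMP, but did not move as one. Cd68 was higher in GMP-labelled leukemias, at 10.57 to 11.26, against 7.97 and 7.89 in healthy GMP. Csf1r overlapped, at 5.64 to 6.74, against 6.63 and 6.15, while F13a1, Ms4a6c and Ccr2 were lower in leukemia. The part of these markers in the differences was not tested.

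Slc38a6, a sodium-coupled carrier of the SNAT family, had 7.52, 6.81, 8.03, 6.56 and 8.22 in GMP-labelled leukemias, against 5.61 and 5.12 in healthy GMP. Every leukemia array exceeded both healthy arrays (difference 2.07 ± 0.38, adjusted p = 0.00171). The mean of its probe sets gave 1.25, since its other probe set stayed below background.

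Slc38a9, the lysosomal arginine sensor upstream of mTORC1, had 7.13, 6.71, 6.47, 6.49 and 7.34 in GMP-labelled leukemias, against 5.51 and 5.18 in healthy GMP. The groups did not overlap, and the difference was 1.48 ± 0.37 (limma adjusted p = 0.0118). Its other 3 probe sets gave 0.59, 0.29 and 0.22, and the mean of all 4 gave 0.64 with no call (adjusted p = 0.102). Slc43a2, the facilitative large neutral carrier LAT4, had 9.26, 7.66, 8.21, 7.37 and 8.65 in GMP-labelled leukemias, against 6.66 and 6.83 in healthy GMP, again without overlap (difference 1.48 ± 0.41, adjusted p = 0.0207). Its second probe set gave 1.53.

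Slc6a13 had 4.51, 4.04, 4.42, 4.44 and 3.91 in GMP-labelled leukemias, against 6.84 and 7.21 in healthy GMP. The leukemia arrays were near background and well below the healthy ones (difference -2.76 ± 0.23, adjusted p = 5.19e-07). Slc43a1, the related large neutral carrier LAT3, had 4.17, 5.52, 4.12, 4.60 and 4.06 in GMP-labelled leukemias, against 6.37 and 6.53 in healthy GMP. All 5 leukemia arrays were lower, array 2 least so (difference -1.96 ± 0.54, adjusted p = 0.0195). Slc43a3 had 8.05, 8.30, 8.57, 9.11 and 8.49 in GMP-labelled leukemias, against 9.41 and 9.72 in healthy GMP. The leukemia arrays were lower but all remained far above background (difference -1.06 ± 0.31, adjusted p = 0.0246). Slc7a4, an orphan relative of the cationic carriers, had 3.92 to 4.26 in GMP-labelled leukemias, against 5.25 in both healthy GMP arrays, and fell by 1.13 (limma adjusted p = 4.79e-04).

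Near background, Slc6a2, the noradrenaline carrier, averaged 3.81 ± 0.27 in GMP-labelled leukemias and 4.45 ± 0.31 in healthy GMP (limma adjusted p = 0.0327). Slc7a2, a cationic amino acid carrier, averaged 3.69 ± 0.13 in GMP-labelled leukemias and 4.12 ± 0.07 in healthy GMP (limma adjusted p = 0.0432). These averages all lie within 1 log2 unit of background. Of the groups compared, only healthy GMP lay above 3.83 for Slc6a2 and Slc7a2, so the filter for testing was passed on the higher side alone. Without healthy GMP array 1 or without array 2, the calls of Slc38a9, Slc43a1, Slc43a2, Slc43a3, Slc6a2 and Slc7a2 were lost, while those of Slc38a6, Slc6a13 and Slc7a4 were not. Without GMP-labelled leukemia array 4, 14 members were called. The share over all genes in that setting is not given, so nothing about the members is read from this count. Slc7a5, Slc7a1 and Slc3a2 had limma adjusted p of 0.989, 0.922 and 0.936 in this comparison, with mean levels of 9.83, 9.93 and 9.77 in GMP-labelled leukemias, against 9.82, 9.87 and 9.69 in healthy GMP.

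**Figure D2:**
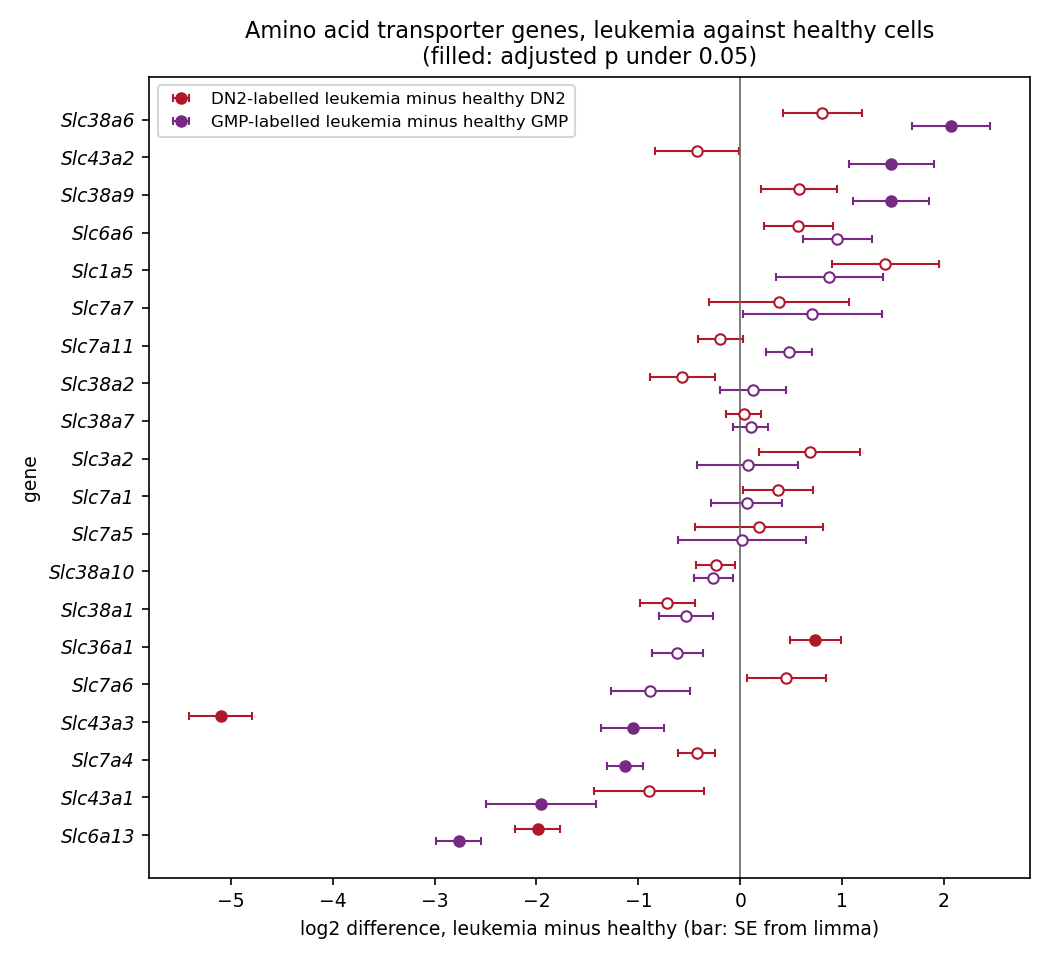
Log2 difference of each transporter gene between leukemia and healthy cells, with the SE from limma as the bar; filled points passed an adjusted p of 0.05. Slc43a3 lies at -5.10 for DN2-labelled leukemia and -1.06 for GMP-labelled leukemia, while Slc6a13 lies below 0 in both.

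The change in the DN2-labelled leukemias was set against the change in the GMP-labelled leukemias in an interaction test. It called 3 members, 9.09% of those tested, against 12.7% of all genes (6.39% higher and 6.28% lower). Slc43a3 had an interaction of -4.04 ± 0.43 (limma adjusted p = 1.58e-05), its fall in DN2-labelled leukemia exceeding that in GMP-labelled leukemia. Slc36a1 had 1.35 ± 0.35 (adjusted p = 0.0194), with a change of 0.74 in DN2-labelled leukemia and -0.62 in GMP-labelled leukemia, where it was not called (adjusted p = 0.0907). Slc43a2 had -1.91 ± 0.59 (adjusted p = 0.0457), with -0.43 in DN2-labelled and 1.48 in GMP-labelled leukemia, and lost this call in 12 of 23 alternatives. Slc36a1 lost its interaction call in 3 of 23, each without a healthy array, and Slc43a3 in none. Without healthy DN2 array 2 or either healthy GMP array, Slc43a3 was the 1 member called. Slc6a13 fell in both leukemias, and its interaction of 0.78 did not pass (adjusted p = 0.124).

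Between the healthy populations, DN2 cells had lower Slc36a1, Slc6a13 and Slc7a4 than GMP. These 3 are 9.09% of the members tested, against 11.2% of all genes (5.78% higher and 5.42% lower). Slc36a1 had 5.88 and 5.29 in healthy DN2 cells, against 7.90 and 7.89 in healthy GMP (difference -2.32 ± 0.30, limma adjusted p = 8.98e-05). Slc6a13 differed by -1.78 (limma adjusted p = 3.07e-04). Slc7a4 had 4.75 and 4.34 in healthy DN2 cells, against 5.25 in both healthy GMP arrays (difference -0.71, adjusted p = 0.0458), and lost this call in 7 of 12 alternatives. A fit to the 4 healthy arrays alone called 15 members and 5326 of the 11629 genes.

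Comparing leukemias by the cell they were labelled as coming from, DN2-labelled leukemias had higher Slc7a6 and Slc43a1 and lower Slc43a3, Slc43a2, Slc38a6, Slc6a13, Slc7a11 and Slc36a1 than GMP-labelled leukemias. These 8 members are 24.2% of those tested, against 39.8% of all genes (21.0% higher and 18.8% lower), a lower share than among genes at large. The median difference was -0.004 over the members and 0.03 over all genes. Neutrophil, T-cell and NK-cell markers moved between these groups as given above, and their part in these differences was not tested.

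Slc7a6, a light chain that exchanges cationic for neutral amino acids, had 8.65, 9.09, 8.85, 9.13 and 9.10 in DN2-labelled leukemias, against 7.29, 8.16, 6.98, 8.40 and 7.35 in GMP-labelled leukemias. The lowest DN2-labelled array was above the highest GMP-labelled array (difference 1.33 ± 0.29, limma adjusted p = 0.00212), and its second probe set gave 1.55. Slc43a1 had 4.79, 7.0, 4.58, 5.56 and 6.37 in DN2-labelled leukemias, against 4.17, 5.52, 4.12, 4.60 and 4.06 in GMP-labelled leukemias, so the groups overlapped (difference 1.17 ± 0.41, adjusted p = 0.0339). Its 2 lowest DN2-labelled values were in arrays 1 and 3, those with high Itgam. Without these 2 arrays the difference was 1.82 (adjusted p = 0.00122), and 7 of 19 alternatives removed the call.

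Slc43a3, near background in DN2-labelled leukemia and at 8.05 to 9.11 in GMP-labelled leukemia, differed by -4.64 ± 0.23 (limma adjusted p = 7.05e-10). Slc6a13 was below background in DN2-labelled leukemia and within 1 log2 unit above it in GMP-labelled leukemia, without overlap (difference -1.01, adjusted p = 1.89e-04). Slc7a11, the cystine importer xCT, had 3.44, 3.23, 3.18, 3.32 and 3.08 in DN2-labelled leukemias, against 3.86, 4.02, 4.64, 4.35 and 4.27 in GMP-labelled leukemias. Every DN2-labelled array was below background and every GMP-labelled array above it (difference -0.98 ± 0.17, adjusted p = 2.94e-04).

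Slc43a2 had 7.40, 6.91, 7.50, 7.15 and 6.34 in DN2-labelled leukemias, and the highest of these exceeded only GMP-labelled array 4 at 7.37 (difference -1.17 ± 0.31, limma adjusted p = 0.00799). Slc38a6 had 6.36, 6.63, 5.87, 6.69 and 6.33 in DN2-labelled leukemias and overlapped GMP-labelled array 4 at 6.56 (difference -1.05 ± 0.29, adjusted p = 0.0094). Its call was lost without DN2-labelled arrays 1 and 3 (-0.88, adjusted p = 0.0609). Slc36a1 had 7.09, 7.35, 7.14, 7.63 and 7.19 in GMP-labelled leukemias, all above the DN2-labelled maximum of 6.84 (difference -0.96 ± 0.19, adjusted p = 8.36e-04).

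**Figure D3:**
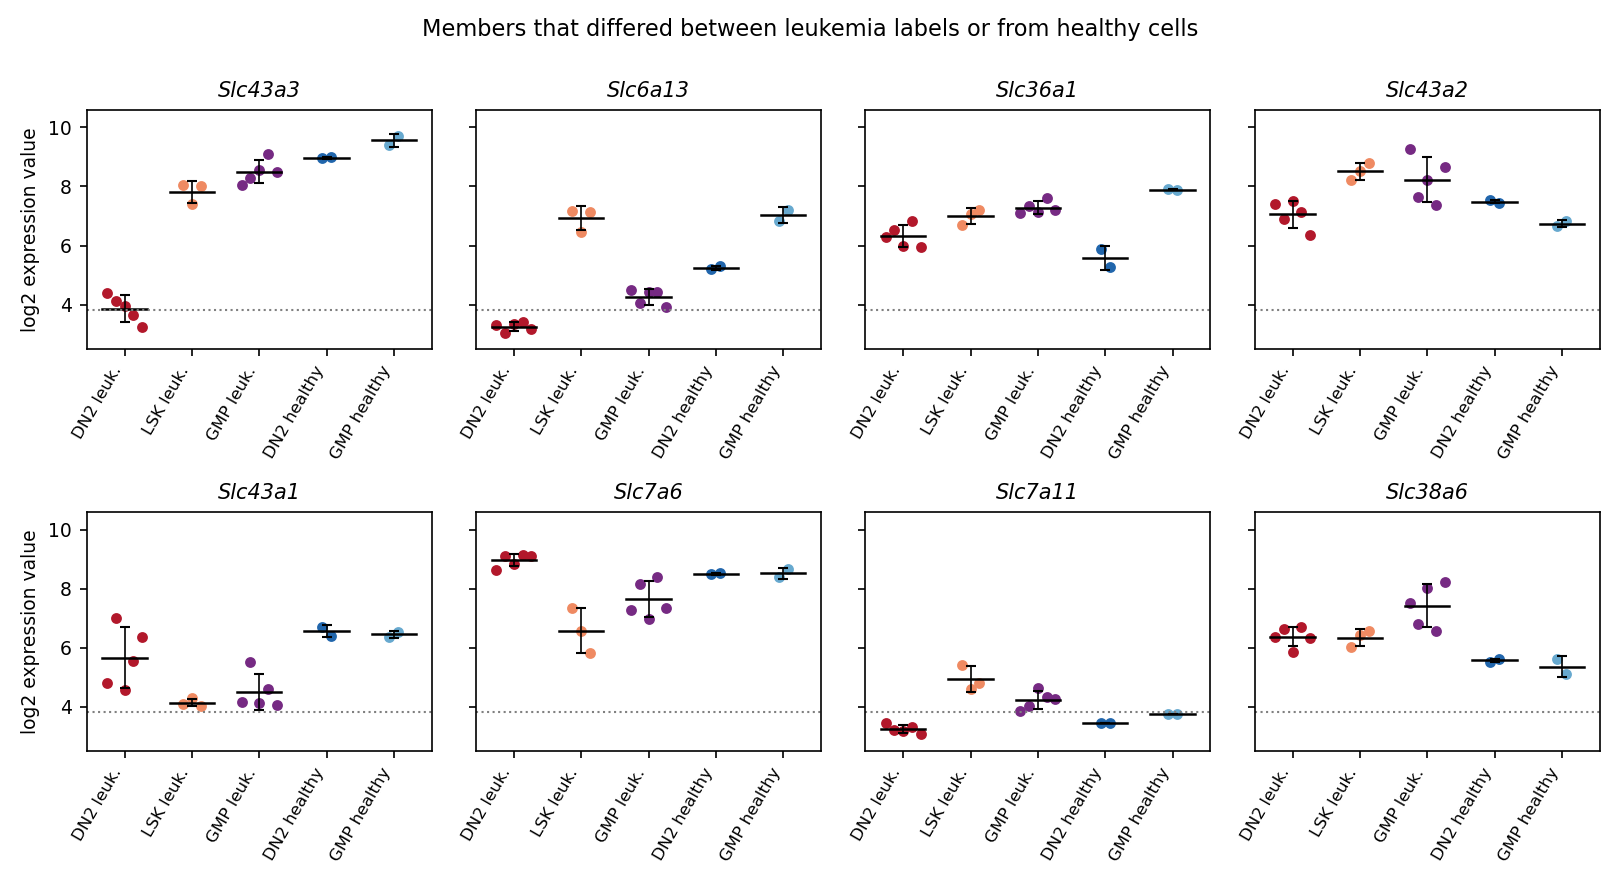
Log2 expression value of 8 transporter genes on every array, by group; each point is an array, the bar is the group mean, the whisker is the SD and the dotted line is background at 3.83. Slc43a3 is near background in DN2-labelled leukemia alone of the 5 groups, and Slc7a11 is above 4.5 in all 3 LSK-labelled arrays.

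Against the LSK-labelled leukemias, DN2-labelled leukemias had higher Slc7a5, Slc7a6, Slc7a1, Slc43a1, Slc38a1 and Slc1a5. They had lower Slc43a3, Slc6a13, Slc7a7, Slc7a11, Slc43a2, Slc6a6, Slc36a1 and, near background, Slc7a8 and Slc6a12. These 15 are 45.5% of the members tested, against 47.4% of all genes (28.3% higher and 19.1% lower), which is close to the share of genes at large. Neutrophil markers averaged 3.45 to 4.39 in DN2-labelled leukemias, against 11.30 to 13.38 in LSK-labelled leukemias. T-cell markers averaged 9.85 to 10.42, against 4.11 to 4.31. The part of these markers in the differences was not tested. With LSK-labelled arrays 2 and 3 left out, 7 of the 15 remained called: Slc38a1, Slc7a1, Slc7a6, Slc7a8, Slc7a11, Slc6a13 and Slc43a3. The LSK-labelled group is then 1 array, whose spread is taken to equal that of the rest. Calls over all genes fell as well, as given at the end.

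In Slc7a5, Slc1a5, Slc7a1 and Slc7a7, LSK-labelled arrays 2 and 3 lay apart from array 1. Slc7a5 had 9.0, 9.76, 9.30, 9.57 and 9.59 in DN2-labelled leukemias, against 9.15, 6.05 and 5.84 in LSK-labelled arrays 1, 2 and 3. Array 1 lay within the DN2-labelled range and the other LSK-labelled arrays more than 2 log2 units below it (difference 2.43 ± 0.55, limma adjusted p = 0.00226). Without arrays 2 and 3 the difference was 0.29 (adjusted p = 0.592). Slc1a5 had 8.17, 8.96, 8.30, 9.01 and 8.00 in DN2-labelled leukemias, against 8.89, 6.49 and 6.36 in LSK-labelled arrays 1 to 3, the same split. Its difference was 1.24 ± 0.46 (adjusted p = 0.037) and turned to -0.40 without arrays 2 and 3 (adjusted p = 0.494). Arrays 2 and 3 are those with low Mycn and Bcl2 and high monocyte markers, and the part of either in these values was not tested.

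Slc7a1, the main cationic amino acid importer CAT1, had 10.21, 10.37, 10.43, 10.46 and 10.04 in DN2-labelled leukemias, against 9.37, 7.59 and 7.65 in LSK-labelled arrays 1 to 3. All 3 LSK-labelled arrays were lower, array 1 least so (difference 2.10 ± 0.30, limma adjusted p = 6.82e-05, and 0.93 without arrays 2 and 3). Slc7a6 had 7.35, 6.57 and 5.81 in the LSK-labelled arrays, all below the DN2-labelled range (difference 2.38 ± 0.34, adjusted p = 5.87e-05). Slc38a1 had 10.08, 10.14, 10.22, 10.44 and 9.12 in DN2-labelled leukemias, against 8.79, 8.53 and 8.79 in LSK-labelled arrays 1 to 3, with no split among those 3 (difference 1.29 ± 0.23, adjusted p = 4.33e-04). Slc3a2, the heavy chain shared by the light chains above, had 10.81, 9.49 and 8.23 in the LSK-labelled arrays, around the DN2-labelled range of 9.22 to 10.71, and did not pass (difference 0.32, adjusted p = 0.575).

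Slc7a7, the light chain that exports cationic amino acids, went the other way. It had 4.26, 4.45, 4.42, 3.59 and 3.37 in DN2-labelled leukemias, against 4.25, 7.02 and 6.77 in LSK-labelled arrays 1 to 3. LSK-labelled array 1 was within the DN2-labelled range and arrays 2 and 3 far above it (difference -2.0 ± 0.60, limma adjusted p = 0.013, and -0.23 without arrays 2 and 3).

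**Figure D4:**
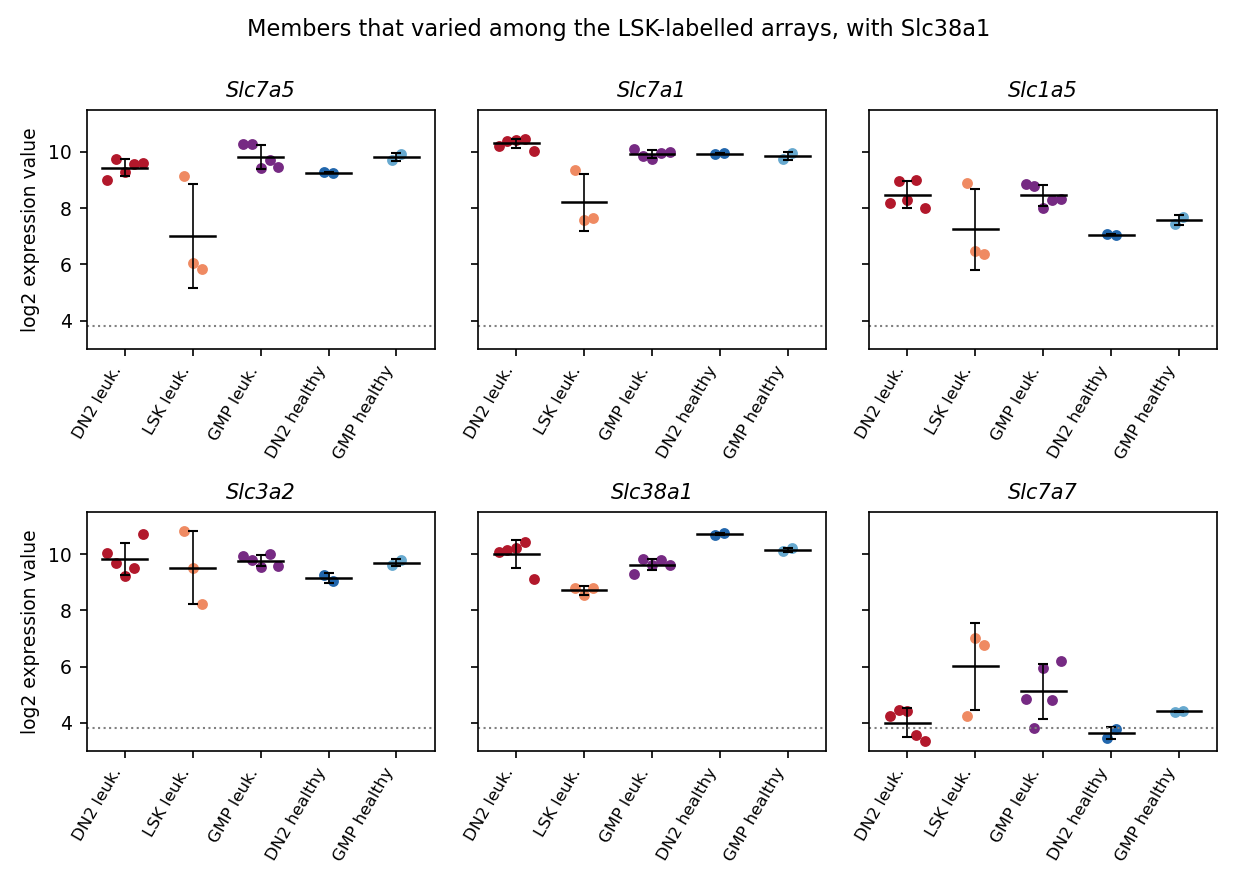
Log2 expression value of 6 transporter genes on every array, by group; each point is an array, the bar is the group mean, the whisker is the SD and the dotted line is background at 3.83. LSK-labelled array 1 lies within the range of the DN2-labelled arrays for Slc7a5, Slc1a5 and Slc7a7, and LSK-labelled arrays 2 and 3 lie outside it; for Slc38a1 the 3 LSK-labelled arrays lie together.

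Members that were higher in all 3 LSK-labelled arrays included Slc6a13, with 3.05 to 3.41 in DN2-labelled leukemias, against 7.18, 6.46 and 7.14 in LSK-labelled leukemias (difference -3.67, limma adjusted p = 2.31e-09). Slc43a3 had 8.04, 7.40 and 8.01 in the LSK-labelled arrays (difference -3.95 ± 0.27, adjusted p = 3.87e-08). Slc7a11 had 5.42, 4.59 and 4.80 there, and all 5 DN2-labelled arrays were below background (difference -1.69 ± 0.19, adjusted p = 9.27e-06). None of these 3 lost its call in any of 18 alternatives.

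Slc43a2 had 8.22, 8.54 and 8.80 in the LSK-labelled arrays, above all DN2-labelled arrays (difference -1.46 ± 0.36, limma adjusted p = 0.00426). Slc6a6, the taurine carrier, had 9.41, 9.64, 9.16, 9.27 and 9.03 in DN2-labelled leukemias, against 10.29, 10.26 and 10.36 in LSK-labelled leukemias, without overlap (difference -1.0 ± 0.29, adjusted p = 0.0119). The mean of its probe sets gave -0.38 and no call. Slc36a1 had 6.70, 7.08 and 7.21 in the LSK-labelled arrays and overlapped the DN2-labelled range through array 1 (difference -0.68, adjusted p = 0.0189, call lost in 5 of 18 alternatives). Slc43a1 had 4.11, 4.28 and 4.03 in the LSK-labelled arrays, below all DN2-labelled arrays (difference 1.52 ± 0.47, adjusted p = 0.0159).

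Near background, Slc6a12, the betaine and GABA carrier beside Slc6a13, had 2.78 to 3.18 in DN2-labelled leukemias, against 3.50, 3.94 and 4.10 in LSK-labelled leukemias (difference -0.82, limma adjusted p = 3.27e-04). Slc7a8, the neutral light chain LAT2, had 3.33 to 3.48 in DN2-labelled leukemias, against 5.92, 3.90 and 4.23 in LSK-labelled arrays 1 to 3 (difference -1.28 ± 0.35, adjusted p = 0.00731). Array 1 stood above the other LSK-labelled arrays, and the difference was -0.66 without it and -2.51 with it as the only LSK-labelled array. Of the groups compared, only LSK-labelled leukemia had a mean above 3.83 for Slc6a12 and Slc7a8. Both genes thus passed the filter for testing through the group in which they were called higher.

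LSK-labelled leukemias compared with GMP-labelled leukemias gave 9 called members, 27.3% of those tested, against 26.7% of all genes (10.3% higher and 16.5% lower). Slc6a13, Slc38a9, Slc7a11 and, near background, Slc6a12 were higher in LSK-labelled leukemia, and Slc7a5, Slc7a1, Slc38a6, Slc7a6 and Slc38a1 were lower. Of the groups compared, Slc6a12 passed the filter for testing only in LSK-labelled leukemia. Slc6a13 lay at 6.46 to 7.18 in LSK-labelled leukemia, against 3.91 to 4.51 in GMP-labelled leukemia, and rose by 2.66 (limma adjusted p = 4.73e-07). Slc7a5 differed by -2.82 ± 0.55 (adjusted p = 0.00193) and Slc7a1 by -1.72 ± 0.30 (adjusted p = 9.75e-04), with LSK-labelled array 1 below all GMP-labelled arrays for both. Slc38a9 had 7.97, 7.89 and 7.64 in LSK-labelled leukemias, above the GMP-labelled maximum of 7.34 (difference 1.00 ± 0.33, adjusted p = 0.0334), and all 3 of its other probe sets gave positive differences of 0.57 to 0.82. Slc38a6 had 6.03, 6.43 and 6.57 in LSK-labelled leukemias, where only array 3 reached the lowest GMP-labelled array (difference -1.09 ± 0.33, adjusted p = 0.0264). Slc7a6 differed by -1.06 (adjusted p = 0.0313), with LSK-labelled array 1 within the GMP-labelled range. Slc38a1 differed by -0.92 (adjusted p = 0.00975). Slc38a9, Slc38a6 and Slc7a6 each lost this call in 7 of 17 alternatives.

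With LSK-labelled arrays 2 and 3 left out, the group is 1 array, and calls over all genes fell as well, as given at the end. The differences were then 2.92 for Slc6a13, 1.19 for Slc7a11 and 2.15 for Slc7a8. With all arrays they were 2.66, 0.71 and 0.91, the last not called. The Slc7a11 call with all arrays (limma adjusted p = 0.0146) was lost in 3 of 17 alternatives. Its difference ran from 0.36 to 1.19 over these. The difference of Slc7a5 became -0.68, that of Slc7a1 -0.56 and that of Slc7a6 -0.28. Slc1a5, not called at -1.21 (adjusted p = 0.0651), became 0.44.

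**Figure D5:**
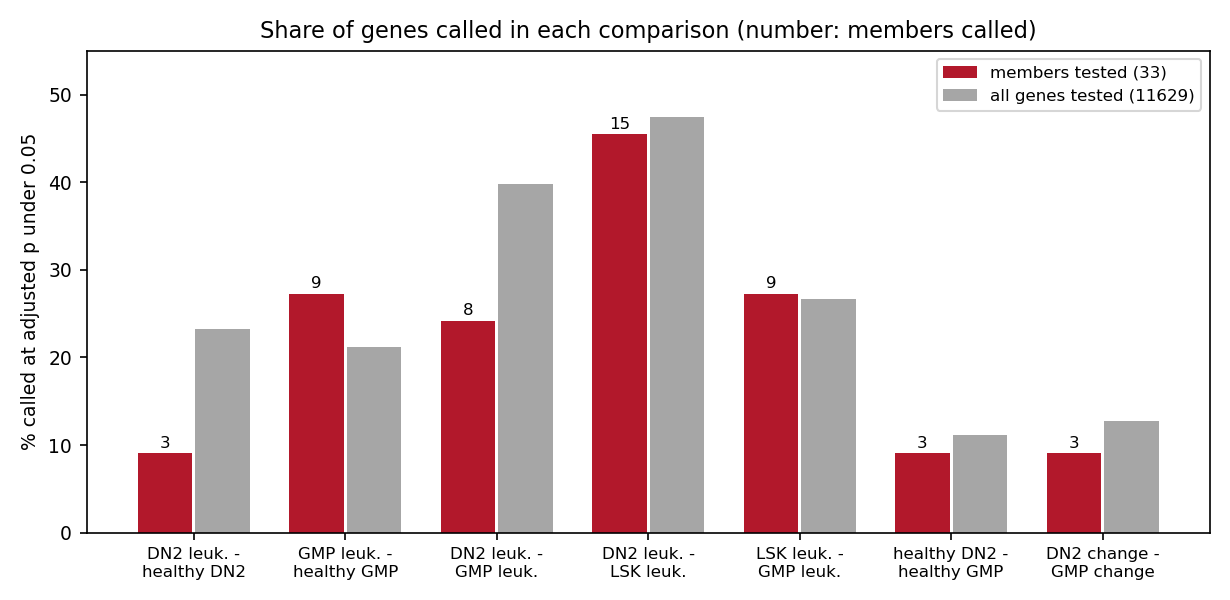
Percent of the 33 tested transporter genes (red) and of all 11629 tested genes (grey) called in each of the 7 comparisons, with the number of members above each bar. The red bar is 9.09% beside 23.2% for DN2-labelled leukemia against healthy DN2 cells, 24.2% beside 39.8% for DN2-labelled against GMP-labelled leukemia, and 45.5% beside 47.4% for DN2-labelled against LSK-labelled leukemia, and these differences in share were not tested.

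Slc38a10, a SNAT-family carrier of the cell interior, had group means between 10.50 and 11.03 and was called in none of the 7 comparisons. Slc38a2, the amino acid-responsive glutamine and alanine importer SNAT2, had group means between 10.27 and 11.40 and was also called in none. Its second probe set, lower in signal, gave a GMP-labelled minus healthy difference of 1.37, against 0.13 for the probe set used, so the probe sets of Slc38a2 disagreed. Slc38a7, a lysosomal glutamine exporter, had group means between 4.66 and 5.00 and no call.

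Members also varied within the GMP-labelled group. Slc38a6 was 6.81 and 6.56 in GMP-labelled arrays 2 and 4, against 7.52 to 8.22 in arrays 1, 3 and 5, and Slc43a2 was 7.66 and 7.37, against 8.21 to 9.26. Slc7a6 ran the opposite way, at 8.16 and 8.40 in arrays 2 and 4, against 6.98 to 7.35. Monocyte markers averaged 7.76 and 8.11 in arrays 2 and 4, against 5.64 to 6.11 in the others, but did not move as one. F13a1 was 9.411 and 8.999 in arrays 2 and 4, against 3.009 to 3.156. Ms4a6c was 7.25 and 8.04, against 3.99 to 4.39, and Ccr2 was also higher there. Csf1r, at 5.64 and 6.45, against 5.75 to 6.74, and Cd68, at 11.07 and 10.57, against 10.92 to 11.26, were not raised. Arrays 2 and 4 were singled out after their values were seen, so no test is given, and the part of the markers was not tested.

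Genes that make, break down, sense or use amino acids were read beside the carriers. In serine, glycine and one-carbon synthesis, 6 of 8 genes were called, all higher in DN2-labelled than in LSK-labelled leukemia (75%, against 47.4% of all genes; median 2.02, against 0.11 over all genes), and 6 were lower in LSK-labelled than in GMP-labelled leukemia (75%, against 26.7% of all genes). Phgdh, which opens the serine pathway, averaged 9.14 ± 0.27 in DN2-labelled and 6.99 ± 1.78 in LSK-labelled leukemia. Without LSK-labelled arrays 2 and 3 the group is 1 array, so counts for the lists are not given and those above rest on all arrays. The list median was then 0.86 in the first of these comparisons, against 2.02 with all arrays. In the second it was -0.77, against -1.51 with all arrays. Of 17 aminoacyl-tRNA synthetases, which load amino acids onto tRNAs, 12 were higher in DN2-labelled than in LSK-labelled leukemia (70.6%, median 0.70) and 13 lower in LSK-labelled than in GMP-labelled leukemia (76.5%). Without arrays 2 and 3 the synthetase medians were 0.41 and -0.40, against 0.70 and -0.81 with all arrays. Against healthy cells, 2 synthetases rose and 1 fell in DN2-labelled leukemia, and 2 fell in GMP-labelled leukemia (17.6% and 11.8%, against 23.2% and 21.2% of all genes). Without DN2-labelled arrays 1 and 3, the limma test called no synthetase in DN2-labelled leukemia.

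Among 9 other genes of amino acid synthesis, Bcat1, which transfers nitrogen to and from branched-chain amino acids, and Asns, the asparagine synthetase, rose in DN2-labelled leukemia compared with healthy DN2 cells (22.2%, against 23.2% of all genes). Bcat1 averaged 7.44 ± 0.33 in DN2-labelled leukemia and 3.44 ± 0.23 in healthy DN2 cells (limma adjusted p = 5.71e-04). Asns averaged 8.27 ± 0.37 in DN2-labelled leukemia and 5.04 ± 0.09 in healthy DN2 cells (limma adjusted p = 0.00143). In GMP-labelled leukemia 1 of the 9 rose and 2 fell (33.3%, against 21.2%), among them Ass1, the argininosuccinate synthase, at 4.22 ± 0.61 in GMP-labelled leukemia and 7.15 ± 0.02 in healthy GMP (adjusted p = 0.00185). Of 8 breakdown genes, Arg2, the mitochondrial arginase, averaged 7.96 ± 1.60 in GMP-labelled leukemia and 3.13 ± 0.18 in healthy GMP (adjusted p = 0.00317). It averaged 3.07 ± 0.13 in DN2-labelled leukemia, and 4 of the 8 were called between DN2-labelled and GMP-labelled leukemia, all lower in DN2-labelled leukemia (50%, against 39.8% of all genes).

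In the stress response that ATF4 directs, 4 of 16 genes were called in GMP-labelled leukemia against healthy GMP and 2 in DN2-labelled leukemia against healthy DN2 cells, all of them higher in leukemia. These are 25% and 12.5% of the list, against 21.2% and 23.2% of all genes, close to or below the share of genes at large. Ddit4, an mTORC1 inhibitor, averaged 11.02 ± 0.73 in GMP-labelled leukemia and 7.56 ± 0.52 in healthy GMP (limma adjusted p = 9.63e-05). DN2-labelled leukemia had 2 of the 16 higher and 6 lower than GMP-labelled leukemia (50%, against 39.8% of all genes). Of 18 genes of amino acid sensing by mTORC1, 3 rose and 1 fell in DN2-labelled leukemia against healthy DN2 cells (22.2%, against 23.2% of all genes). Rragd, a Rag GTPase, averaged 6.97 ± 1.34 in DN2-labelled leukemia and 3.41 ± 0.25 in healthy DN2 cells (adjusted p = 9.19e-04). DN2-labelled leukemia had 7 of the 18 higher and 4 lower than GMP-labelled leukemia (61.1%, against 39.8% of all genes), and 6 higher and 2 lower without DN2-labelled arrays 1 and 3.

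Among 11 carriers of amino acids and short peptides outside the families above, 5 were called between DN2-labelled and GMP-labelled leukemia, all lower in DN2-labelled leukemia (45.5%, against 39.8% of all genes). Against LSK-labelled leukemia, 7 were lower and 2 higher in DN2-labelled leukemia (81.8%, against 47.4%). The median difference was -1.03, and -0.55 without LSK-labelled arrays 2 and 3. Slc15a3, a lysosomal peptide and histidine carrier of myeloid cells, averaged 3.91 ± 0.74 in DN2-labelled leukemia, near background, and 8.77 ± 1.51 in LSK-labelled leukemia (limma adjusted p = 2.47e-04). Ctns, the lysosomal cystine exporter, averaged 3.90 ± 0.15 in DN2-labelled and 5.08 ± 0.22 in GMP-labelled leukemia (adjusted p = 6.48e-06).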

How the data were processed

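The deposited table holds 1 log2 expression value per probe set and array, which the authors made with RMA (background correction, quantile normalization and probe summary), credited to RMA and affy in the submitters' processing notes. Per the labels' protocols each array used 300 ng of RNA. RMA values carry no detection call, so the median of all values, 3.83, stands in for background, and the number of arrays limits the precision. Array medians ran from 3.80 to 3.86. Of 45141 probe sets, 104 control probe sets were left out and 28898 had 1 gene symbol in the platform annotation. Genes came from those, by the probe set of highest mean, and all 58 members matched a RefSeq symbol.

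Groups and replicate numbers came from the labels. Limma 3.58.1 in R 4.3.3 fitted 1 mean per group over all 17 arrays, with 7 two-sided contrasts and Benjamini-Hochberg adjustment over the 11629 genes tested. The fit was also run on simulated data with 1 spread per gene for all groups. That setting cannot probe unequal spread between groups, and nothing is concluded from it. Same-numbered arrays of different groups did not deviate together (correlations of deviations -0.30 to 0.25, above 0.1 in 6 of 25 pairs), so the numbers were not taken as pairs. The members, the gene lists, the cell markers and the arrays left out together were chosen with earlier results of these data known. Every called member was named, with its arrays for the 12 largest differences and the 6 highest means, and pathway genes by largest called difference. Alternatives were the mean of a gene's probe sets, other filters, other scalings, only the groups compared, another variance model, the replicate number as a block, and leaving out each array, DN2-labelled arrays 1 and 3, or LSK-labelled arrays 2 and 3.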

Additional observations from a re-analysis of the deposited data

Results flagged for a closer look

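Slc38a1 in DN2-labelled leukemia array 5 was 9.12, below the other 4 arrays at 10.08 to 10.44 and far from them for a group of that size. Slc7a8 in GMP-labelled leukemia array 5 was 4.36, above the other 4 arrays at 3.57 to 3.70 and still near background. These are 2 of 46 groups examined over 23 genes, and chance sets an array apart in about 1 of 20 groups. The change in DN2-labelled leukemia differed from that in GMP-labelled leukemia, each against its healthy population, for 3 members by the limma interaction test: Slc43a3 by -4.04 ± 0.43 (SE), Slc43a2 by -1.91 ± 0.59 and Slc36a1 by 1.35 ± 0.35.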

How the results depend on the processing

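Healthy groups of 2 arrays, values that end at background and arrays at odds with their labels limit these results. With only the arrays of the groups compared, 5 members were called in DN2-labelled leukemia against healthy DN2 cells and 15 in healthy DN2 cells against healthy GMP. Leaving out each array in turn gave 2 to 4 members in DN2-labelled leukemia against healthy DN2 cells, 3 to 14 in GMP-labelled leukemia against healthy GMP (3 without either healthy GMP array, 14 without GMP-labelled array 4), 7 to 9 in DN2-labelled against GMP-labelled, 11 to 16 in DN2-labelled against LSK-labelled, 6 to 10 in LSK-labelled against GMP-labelled, 2 between the healthy groups and 1 to 3 in the interaction (1 without healthy DN2 array 2 or either healthy GMP array). Without LSK-labelled arrays 2 and 3, 7 members were called in DN2-labelled against LSK-labelled leukemia and 3 in LSK-labelled against GMP-labelled leukemia. There Slc1a5 turned to -0.40 in DN2-labelled against LSK-labelled leukemia and to 0.44 in LSK-labelled against GMP-labelled leukemia, and Slc7a7 to -0.87 in LSK-labelled against GMP-labelled leukemia. With the replicate number as a block, in the same order of comparisons as for the single arrays, the counts were 4, 9, 8, 16, 7, 4 and 2. Counts over all genes are given only for the settings at the end of this paragraph. Member counts in other settings are therefore not read as results about the members. Called in every alternative that tested them were Slc6a13 in all 6 of its comparisons, Slc43a3 in its 3 DN2-labelled comparisons and the interaction, Slc7a4 and Slc38a6 in GMP-labelled leukemia against healthy GMP, Slc7a6 and Slc7a11 in DN2-labelled leukemia against both other leukemias, Slc36a1 and Slc43a2 in DN2-labelled against GMP-labelled leukemia, Slc38a1, Slc7a1 and Slc7a8 in DN2-labelled against LSK-labelled leukemia, and Slc36a1 in healthy DN2 cells against healthy GMP. Every other call was lost in at least 1 alternative. The cause of these shifts was not tested. No rescaling moved the median of all genes by over 0.1. Over all genes, leaving out 1 healthy array gave 1236 and 1252 calls against 2695 with all arrays in DN2-labelled leukemia against healthy DN2 cells, 848 and 889 against 2463 in GMP-labelled leukemia against healthy GMP, 602 to 785 against 1302 between the healthy groups (5326 with only their arrays) and 788 to 913 against 1473 in the interaction. In LSK-labelled against GMP-labelled leukemia, 3108 genes became 1658 with only the groups compared, 1889 without LSK-labelled array 2 and 1378 without arrays 2 and 3, which also gave 3172 in place of 5515 in DN2-labelled against LSK-labelled leukemia.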
